A study of Mus musculus with 5 samples.

Results

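The genes examined were 10 rows of the deposited expression table, chosen by name: the 5 NF-kappaB subunit genes Nfkb1, Nfkb2, Rel, Rela and Relb, and 5 inhibitor genes, Nfkbia, Nfkbib, Nfkbie, Nfkbiz and Tnfaip3. All 10 were among the 34240 features of the table, and all 10 were among the 10166 features that passed a filter of 1 RPKM in at least 2 libraries. The comparison was between normal mouse myeloid cells and cells of an acute myeloid leukaemia (AML) induced by CNTRL-FGFR1, which joins centriolin, a protein of the centrosome, to the growth factor receptor FGFR1. All mice were BALB/c and 10 to 12 months old. The 3 normal libraries came from bone marrow cells sorted as Gr1+Mac1+, with no leukaemia. The 2 AML libraries came from cells sorted as Mac+Gr1+B220+, with bone marrow and spleen given as their tissue. Spleen and the B220 sort belonged to the AML group alone, so tissue, sort and leukaemia cannot be told apart. The labels do not say how the fusion was introduced, or which animals gave which library. The p-values therefore describe the spread among these libraries only, and that spread may be technical.

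NF-kappaB is a family of dimeric transcription factors built from 5 related subunits. In resting cells the dimers are held in the cytoplasm by inhibitors of the IkappaB family. Signals from Toll-like, interleukin and tumour necrosis factor receptors activate the IKK kinase complex, which marks these inhibitors for degradation and frees the dimers to enter the nucleus. In myeloid cells the best known outputs are inflammatory cytokine and chemokine genes. Several genes of the pathway, Nfkbia and Tnfaip3 among them, are themselves textbook targets of NF-kappaB and close a negative feedback loop.

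The sequence through which that feedback is thought to act is the kappaB motif, so the promoters of the members were searched for its consensus on both strands. RefSeq windows of the 250 bases before the transcription start (build GRCm38.p6) were matched for 7 of the 10 genes, namely Nfkb2, Nfkbia, Nfkbib, Nfkbie, Rel, Rela and Tnfaip3, with 10 windows in all, and were not matched for Nfkb1, Relb and Nfkbiz. At least 1 window of 5 of these 7 genes held the motif, namely those of Nfkb2, Nfkbia, Nfkbie, Rel and Tnfaip3, against 4.46% of 27025 genes with a window of the same length. Nfkb2 and Tnfaip3 each had more than 1 window, and 1 of the Tnfaip3 windows held no match. Among all 32851 windows the share with the motif was 3.9%, and among 7241 tested genes with a window it was 5.44%. These matches are a description of letters, not of bound sites. The 4 windows shown are those of the subunits Rel and Nfkb2 and of the feedback inhibitors Nfkbia and Tnfaip3, which hold the motif and whose values are given in every library below. They are written 5′ to 3′ on the gene's strand, with matches on either strand in capitals and overlapping matches merged. The windows are chr12:55492648-55492897 on the minus strand for Nfkbia, chr10:19015411-19015660 on the minus strand for Tnfaip3, chr11:23770970-23771219 on the minus strand for Rel, and chr19:46304487-46304736 on the plus strand for Nfkb2.
Nfkbia: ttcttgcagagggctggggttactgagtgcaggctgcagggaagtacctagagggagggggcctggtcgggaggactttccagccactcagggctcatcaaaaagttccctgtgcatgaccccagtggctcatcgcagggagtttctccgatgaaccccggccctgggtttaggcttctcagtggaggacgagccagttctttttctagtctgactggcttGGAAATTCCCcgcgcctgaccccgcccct
Tnfaip3: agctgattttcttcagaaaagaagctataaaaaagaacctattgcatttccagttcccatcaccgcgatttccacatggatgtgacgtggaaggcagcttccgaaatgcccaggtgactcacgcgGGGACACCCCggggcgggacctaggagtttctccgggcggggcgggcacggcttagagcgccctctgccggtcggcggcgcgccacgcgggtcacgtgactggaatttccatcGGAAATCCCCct
Rel: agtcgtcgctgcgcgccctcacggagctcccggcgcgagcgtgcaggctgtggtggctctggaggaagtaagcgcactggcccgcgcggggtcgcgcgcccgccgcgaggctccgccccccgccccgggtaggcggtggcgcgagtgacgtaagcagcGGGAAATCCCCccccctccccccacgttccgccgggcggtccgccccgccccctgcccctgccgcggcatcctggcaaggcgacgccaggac
Nfkb2: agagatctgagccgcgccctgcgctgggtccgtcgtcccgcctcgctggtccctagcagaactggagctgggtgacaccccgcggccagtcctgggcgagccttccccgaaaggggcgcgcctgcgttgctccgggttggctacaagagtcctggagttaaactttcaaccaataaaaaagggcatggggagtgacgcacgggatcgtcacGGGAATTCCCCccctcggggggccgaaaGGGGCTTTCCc
The Nfkbia match began 29 bases before the start. In Tnfaip3 the matches began 125 and 12 bases before it, in Rel 92 bases, and in Nfkb2 39 and 11 bases. GC content of these windows was 59.2%, 58.8%, 77.6% and 64.8%, against a median of 52.4% over all windows.

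Values are RPKM (reads scaled to exon length and to library size), which was inferred from the table. RPKM totals ran from 472234 to 638584 per library, and no count of reads was used. Late neutrophil genes were abundant in every library. They numbered 13, as 2 of the 14 names chosen belong to 1 gene. Their summed levels were 59239 to 73563 RPKM in normal and 47584 to 64147 RPKM in AML libraries. Ngp and Camp carried most of these sums. Ngp stood at 36430.9 to 39027.2 RPKM in normal and at 41385.1 and 23679.9 RPKM in AML libraries 1 and 2. Of the 13 genes, 8 were lower in AML cells and none was higher. All 8 early granulocyte genes, such as those of elastase and myeloperoxidase, were higher in AML cells, where they summed to 10621 and 11621 RPKM against 343 to 492 RPKM. Monocyte and macrophage genes numbered 14, as 2 of the 15 names chosen belong to 1 gene. They summed to 16145, 15904 and 7153 RPKM in normal libraries 1 to 3 and to 9504 and 3637 RPKM in AML libraries 1 and 2. Lyz2, the lysozyme gene, carried most of these sums, and without it the other 13 genes summed to 1149, 922 and 803 RPKM in normal and 64.1 and 76.5 RPKM in AML libraries. B lineage genes (10 of 10) summed to 12.3 to 20.2 RPKM in normal and 11.6 and 14.3 RPKM in AML libraries. T and NK cell genes (14 of 14) summed to 59.5 to 66.7 RPKM and 619 and 575 RPKM, while Trac was listed at 0 throughout. The higher AML sums rested on Cd3e, Cd3g and Nkg7. Without these 3 genes the list summed to 48.3, 51 and 43.5 RPKM in normal and 24.3 and 23.9 RPKM in AML libraries. Cd3d made up most of what was left, at 42, 45.5 and 38.4 RPKM in normal and 16.5 and 17.2 RPKM in AML libraries. Of the 3 tested genes left, Cd3d was lower and Gzma higher in AML cells. Gzma stood at 1.64, 1.69 and 1.38 RPKM in normal and 4.93 and 4.63 RPKM in AML libraries. Normal library 3 stood apart from normal libraries 1 and 2. Erythroid genes (9 of 10) summed to 172 RPKM there and 2226 and 1457 RPKM in the other two, and eosinophil, basophil and mast cell genes (11 of 11) to 61.4 RPKM against 1039.5 and 1106 RPKM. AML values of these lists were 149 and 171 RPKM and 124 and 252 RPKM. Dendritic cell genes (13 of 13) summed to 207, 164 and 73.7 RPKM in normal and 249 and 256 RPKM in AML libraries, with 1 of 10 tested genes higher and 2 lower. The higher gene, the growth factor receptor gene Flt3, supplied 187.45 and 175.88 RPKM of the AML sums, and without it the list summed to 205, 162 and 71.6 RPKM in normal and 61.3 and 79.7 RPKM in AML libraries. Results of the members and of some named genes that rest on normal library 3 are therefore given with and without it. This was not done for every gene.

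Of the 10 members, Relb and Nfkbiz were lower in AML cells and none was higher, in a test across all genes (limma on log2(RPKM + 1), two-sided, Benjamini-Hochberg adjusted p under 0.05). Relb, the subunit of the alternative pathway, was 3.1-fold lower, and Nfkbiz, a nuclear IkappaB protein, was 3.12-fold lower. Across all tested genes 31.0% passed this threshold, 11.8% in the lower and 19.3% in the higher direction, beside which the 2 lower members of 10 are to be read. Estimates lay below 0 for 8 of 10 members, with a median log2 fold change of -0.40, beside a median of 0.12 over all tested genes. All members below 0 were listed with 1 decimal, and the 2 above 0, Nfkbia and Nfkbie, with 2 decimals. Why number format and direction went together was not tested. For the 5 subunits the median was -0.79 and for the 5 inhibitors it was -0.08. At an unadjusted limma p under 0.05 there were 3 lower members and no higher one, the third lower member being Rel, while 43.9% of all tested genes passed that threshold, 17.4% of all being lower in AML. Groups did not overlap for Nfkb2, Rel, Relb and Nfkbiz, 4 members that were all lower in AML, while 57.0% of all tested genes did not overlap, 22.1% with AML lower and 34.8% with AML higher. In bulk RNA, fewer cells of a type and less RNA per cell cannot be told apart.

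**Figure D1:**
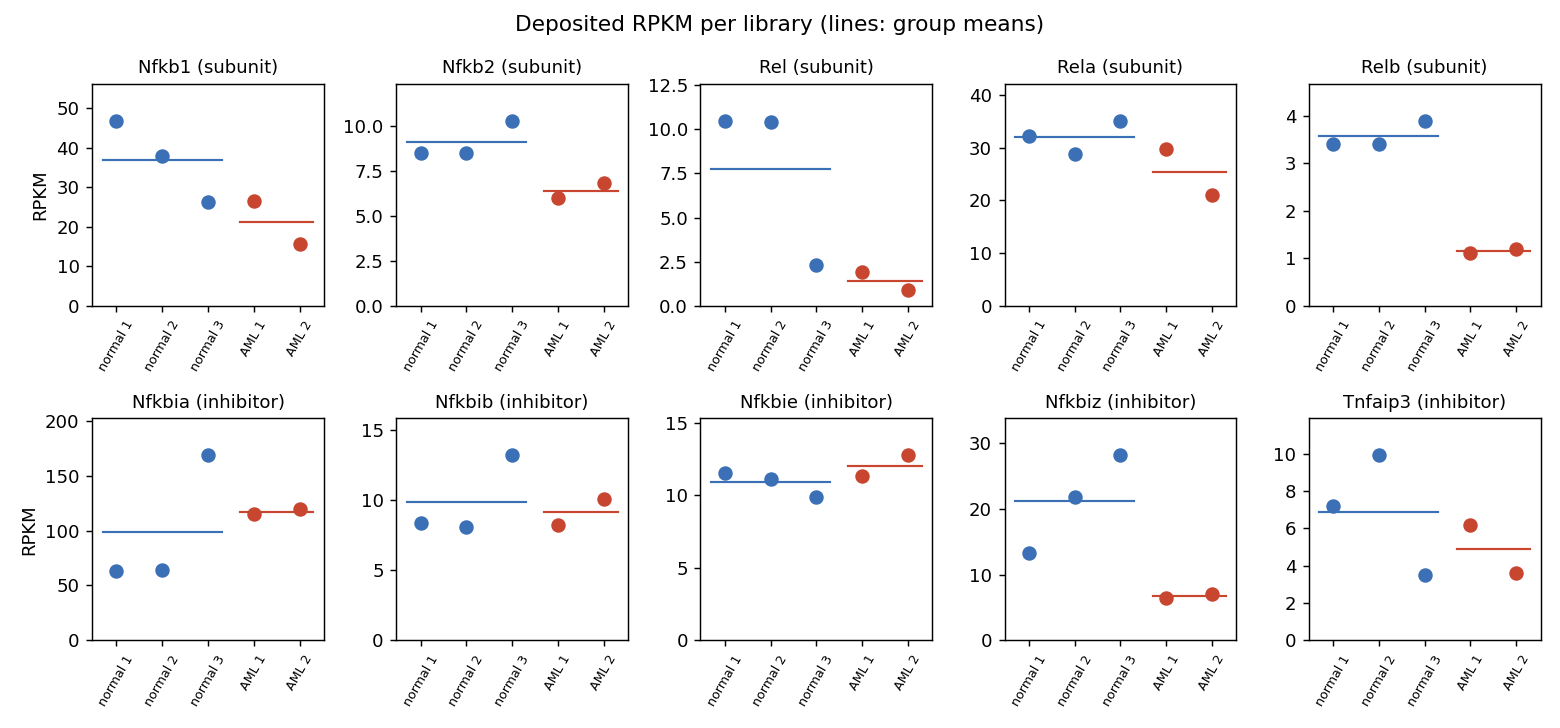
Deposited RPKM of the 10 members (vertical axes, each from 0) in the 3 normal (blue) and 2 AML (red) libraries, with lines at the group means. Relb, Nfkbiz, Nfkb2 and Rel have AML points below every normal point, and normal library 3 lies far from the other normal libraries for Rel and Nfkbia.

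Relb (chromosome 7, 20191566 to 20214787, mm9; ENSMUSG00000002983) encodes the subunit that pairs with processed Nfkb2 in the alternative pathway. It stood at 3.4, 3.4 and 3.9 RPKM in normal libraries 1 to 3 and at 1.1 and 1.2 RPKM in AML libraries 1 and 2. Both AML values lay far below all normal values, and each group was tight. The means were 3.57 ± 0.289 RPKM (SD, n = 3) and 1.15 ± 0.0707 RPKM (SD, n = 2). On the log2 scale the change was -1.09 (SE 0.19, limma adjusted p = 0.0073). Its call held without any one normal library and was lost without AML library 1 (limma adjusted p = 0.055) or AML library 2 (0.063), where the estimates were -1.05 and -1.12. Relb was the lowest of the 10 members in both groups by mean RPKM.

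Rel (chromosome 11, 23641514 to 23670970; ENSMUSG00000020275) encodes c-Rel, a transactivating subunit of lymphoid and myeloid cells. Its values were 10.5, 10.4 and 2.3 RPKM in normal and 1.9 and 0.9 RPKM in AML libraries. Normal libraries 1 and 2 were high, and normal library 3 was near the AML libraries, just above the higher of them. Group means were 7.73 ± 4.71 RPKM (SD, n = 3) and 1.4 ± 0.707 RPKM (SD, n = 2), a ratio of 5.52, with a log2 fold change of -1.69 (SE 0.56) that missed the threshold (limma adjusted p = 0.061). Without normal library 3 the log2 fold change was -2.29 (SE 0.27, limma adjusted p = 0.00036). With normal library 3 as the only normal library it was -0.49, and no test is given for that fit. Among the 3 non-member genes with the nearest centred profile over the 5 libraries were Klhl28 and Mef2a, at Euclidean distances of 0.183 and 0.306 on the log2(RPKM + 1) scale. Mef2a, a MADS-box transcription factor, stood at 30.8, 26.4 and 9.6 RPKM in normal and 7.2 and 4 RPKM in AML libraries.

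Nfkb1 (chromosome 3, 135247619 to 135354511; ENSMUSG00000028163) encodes a precursor that is processed to a DNA-binding subunit. It was listed at 46.8, 37.8 and 26.2 RPKM in normal and 26.5 and 15.7 RPKM in AML libraries. AML library 1 and normal library 3 were nearly level, so the groups overlapped. The log2 fold change was -0.79 (95% interval -1.59 to 0.02, limma adjusted p = 0.12), and without normal library 3 it was -1.01 and passed (limma adjusted p = 0.024). Without AML library 1 or AML library 2 the estimates were -1.15 and -0.43.

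Rela (chromosome 19, 5637483 to 5648130; ENSMUSG00000024927), the main transactivating subunit of the canonical pathway, did not pass the test. Its values were 32.1, 28.7 and 35.1 RPKM in normal and 29.8 and 20.9 RPKM in AML libraries. Only AML library 2 fell outside the normal range. A log2 fold change of -0.34 with a 95% interval of -0.93 to 0.25 leaves room for a lower level as well as for a slightly higher one (limma adjusted p = 0.33). The estimate was -0.59 without AML library 1 and -0.09 without AML library 2.

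Nfkb2 (chromosome 19, 46379227 to 46386580; ENSMUSG00000025225) encodes the precursor that is processed in the alternative pathway. It stood at 8.5, 8.5 and 10.3 RPKM in normal and 6 and 6.8 RPKM in AML libraries. AML values were below every normal value, by a small margin, and the log2 fold change of -0.45 (95% interval -0.96 to 0.07) missed the threshold (limma adjusted p = 0.16). The annotated gene overlaps Psd on the other strand, which was listed below 1 RPKM in every library.

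**Figure D2:**
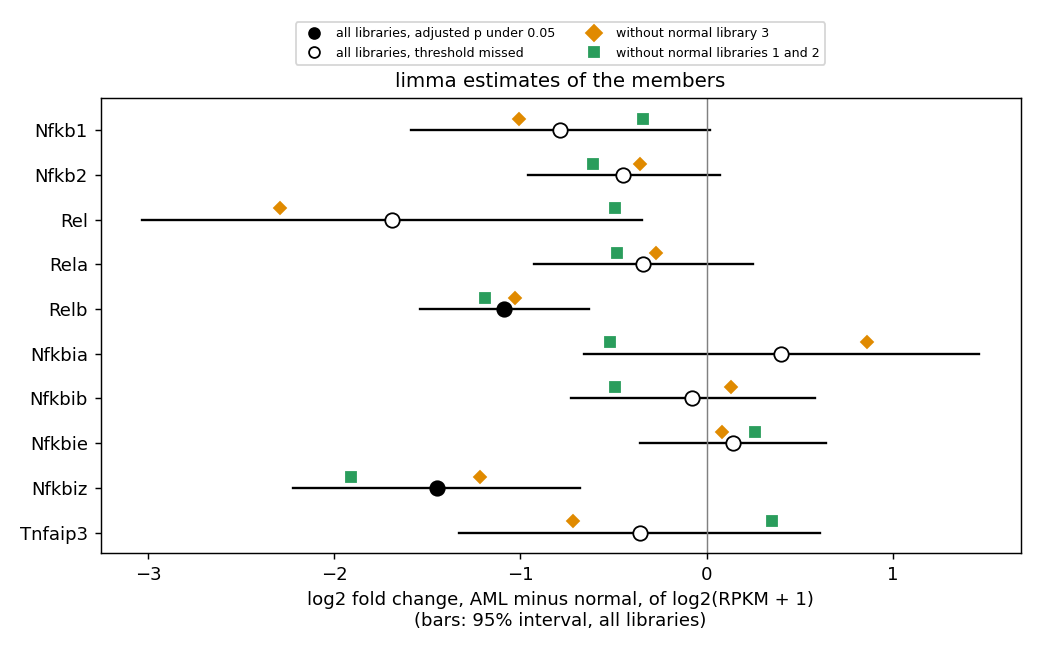
Estimated log2 fold changes (AML minus normal, horizontal axis) of the 10 members, as circles with 95% intervals over all libraries, filled where the adjusted p was under 0.05, with estimates without normal library 3 (diamonds) and without normal libraries 1 and 2 (squares). All 5 subunits and Nfkbiz lie below 0 in all 3 fits, and Nfkbie lies above 0 in all 3. Nfkbia, Nfkbib and Tnfaip3 lie on both sides of 0.

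Among the inhibitors, Nfkbia (chromosome 12, 56590398 to 56593634; ENSMUSG00000021025), which encodes IkappaB alpha, was the most abundant member in every library. It stood at 63.47, 64.5 and 168.43 RPKM in normal and 115.31 and 119.26 RPKM in AML libraries. The AML libraries were nearly equal and lay between normal libraries 1 and 2 on one side and normal library 3 on the other. Group means were 98.8 ± 60.3 RPKM (SD, n = 3) and 117 ± 2.79 RPKM (SD, n = 2), and the log2 fold change of 0.40 did not pass (95% interval -0.66 to 1.46, limma adjusted p = 0.51). Without normal library 3 it was 0.86 and passed (SE 0.23, limma adjusted p = 0.015), and without normal libraries 1 and 2 it was -0.52. The direction for Nfkbia thus turned with the choice of normal libraries.

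Nfkbib (chromosome 7, 29543270 to 29552531; ENSMUSG00000030595) and Nfkbie (chromosome 17, 45692665 to 45700118; ENSMUSG00000023947), the beta and epsilon members of the classical IkappaB proteins, did not pass the test. Nfkbib was listed at 8.4, 8.1 and 13.2 RPKM in normal and 8.2 and 10.1 RPKM in AML libraries. Its AML values lay inside the normal range (log2 fold change -0.08, 95% interval -0.73 to 0.58, limma adjusted p = 0.85). Nfkbie was listed at 11.55, 11.15 and 9.86 RPKM in normal and 11.32 and 12.75 RPKM in AML libraries (log2 fold change 0.14, 95% interval -0.36 to 0.64, limma adjusted p = 0.64). Neither interval excludes a modest change. Nfkbib overlaps Sirt2 on the other strand, which stood at 26.05 to 37.61 RPKM in the 5 libraries. The sources used here do not state whether counting used strand, so reads in the shared stretch cannot be assigned.

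Nfkbiz (chromosome 16, 55811488 to 55839012; ENSMUSG00000035356) encodes a nuclear IkappaB protein that acts as a cofactor at secondary inflammatory genes. It stood at 13.3, 21.8 and 28.1 RPKM in normal and at 6.5 and 7 RPKM in AML libraries. The normal values were spread, yet both AML values lay below the lowest of them. Means of 21.1 ± 7.43 RPKM (SD, n = 3) and 6.75 ± 0.354 RPKM (SD, n = 2) gave a log2 fold change of -1.45 (SE 0.33, limma adjusted p = 0.017). Without normal library 2 the call was lost (limma adjusted p = 0.062), as it was without AML library 1 (0.089) or AML library 2 (0.10), with estimates of -1.40 to -1.50 there. Non-member genes nearest to its profile were Ptp4a1, Emp1 and Plaur, at distances of 0.236, 0.24 and 0.287. Plaur, the urokinase receptor, stood at 116.3, 149.7 and 207.7 RPKM in normal and 58.2 and 51.9 RPKM in AML libraries.

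Tnfaip3 (chromosome 10, 18720716 to 18735463; ENSMUSG00000019850), a ubiquitin-editing enzyme that ends signalling upstream of IKK, was listed at 7.2, 9.9 and 3.5 RPKM in normal and 6.2 and 3.6 RPKM in AML libraries. The groups overlapped, with normal library 3 the lowest of all. Its log2 fold change was -0.36 (95% interval -1.33 to 0.61, limma adjusted p = 0.53), and it turned to 0.35 without normal libraries 1 and 2. It was -0.68 without AML library 1 and -0.04 without AML library 2.

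By mean RPKM in normal cells the members ran from Nfkbia through Nfkb1, Rela, Nfkbiz, Nfkbie, Nfkbib, Nfkb2, Rel and Tnfaip3 to Relb. In AML cells the order was Nfkbia, Rela, Nfkb1, Nfkbie, Nfkbib, Nfkbiz, Nfkb2, Tnfaip3, Rel and Relb. Neighbours whose means differed by less than the larger of their SDs were Nfkb1 and Rela in both groups, Nfkbie to Tnfaip3 at each step in normal cells, and in AML cells Nfkbiz and Nfkb2, Nfkb2 and Tnfaip3, and Rel and Relb.

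Since RPKM is scaled to length, the make-up of the subunit pool was described per library, with no test. The 5 subunits together summed to 101, 88.8 and 77.8 RPKM in normal and 65.3 and 45.5 RPKM in AML libraries. Both AML sums were below every normal sum. Rel made up 10.4%, 11.7% and 2.96% of the subunit sum in normal and 2.91% and 1.98% in AML libraries. Rela made up 31.7%, 32.3% and 45.1% in normal and 45.6% and 45.9% in AML libraries, so that normal library 3 sat with the AML libraries for both shares. Relb behaved otherwise, at 3.36%, 3.83% and 5.01% in normal and 1.68% and 2.64% in AML libraries, and here normal library 3 was the highest. The summed level of Nfkbia, Nfkbib and Nfkbie, divided by the subunit sum, was 0.823, 0.943 and 2.46 in normal and 2.06 and 3.12 in AML libraries. Group means of this ratio were 1.41 ± 0.912 (SD, n = 3) and 2.59 ± 0.75 (SD, n = 2), and the mean normal ratio without normal library 3 was 0.883. Nfkbia supplied 76.1% to 88% of the inhibitor sum in every library.

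**Figure D3:**
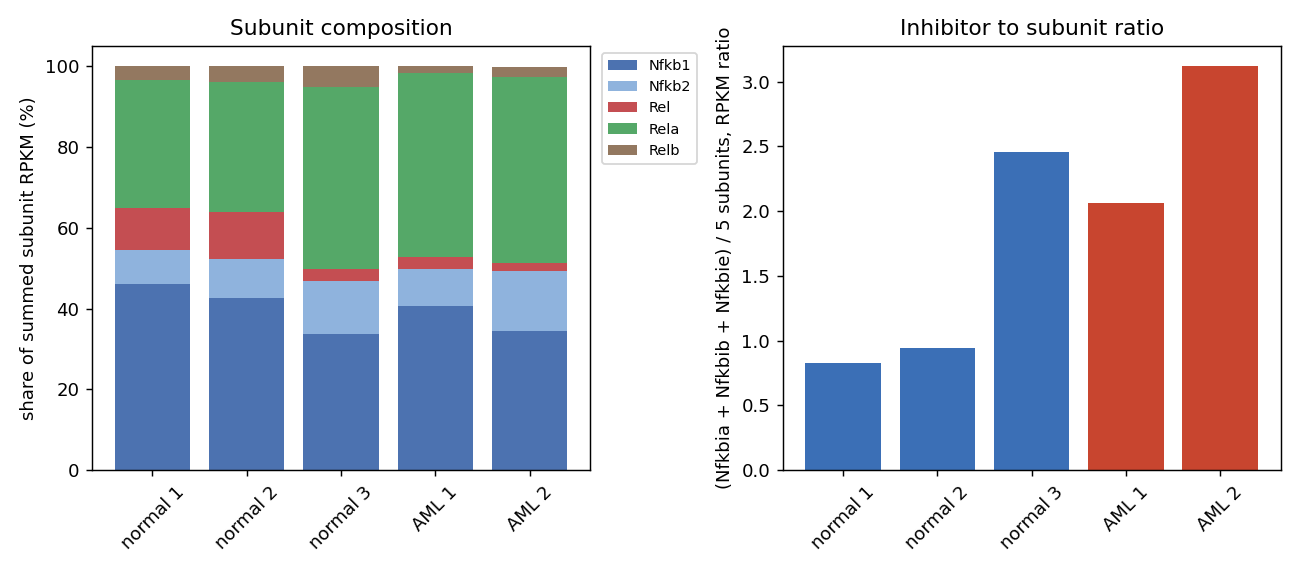
Left, share of each subunit in the summed subunit RPKM (%) per library. Right, ratio of summed Nfkbia, Nfkbib and Nfkbie RPKM to summed subunit RPKM per library. Normal library 3 has a small Rel share (2.96%) and a ratio of 2.46, between those of the AML libraries.

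Differences inside the normal group were large for some members. Normal library 3 differed from the mean of normal libraries 1 and 2 by more than 2-fold on the log2(RPKM + 1) scale for Rel, Nfkbia and Tnfaip3, 3 of 10 members, against 10.1% of all tested genes. Nfkbia was 2.63-fold higher there, Rel 4.54-fold lower and Tnfaip3 2.44-fold lower. The AML mean and normal library 3 were each set against the same normal libraries 1 and 2, so these differences share their controls. For Rel the log2 differences were -1.79 in normal library 3 and -2.29 in AML. For Nfkbia they were 1.38 and 0.86, for Tnfaip3 -1.07 and -0.72, and for Nfkb1 -0.66 and -1.01. For Nfkbiz they were 0.69 and -1.22, and for Relb 0.16 and -1.03, so for these called members normal library 3 lay on the far side from AML. Erythroid, eosinophil, monocyte and dendritic cell genes were also lower in normal library 3, as given above, and their part in the Rel, Nfkbia and Tnfaip3 values was not tested. Without normal library 3, Nfkb1, Rel, Relb and Nfkbiz were lower and Nfkbia was higher, in a fit that called 48.5% of all genes (21.2% lower, 27.3% higher). Without normal libraries 1 and 2, Relb and Nfkbiz were lower, in a fit that called 14.1% (4.99% lower, 9.15% higher).

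**Figure D4:**
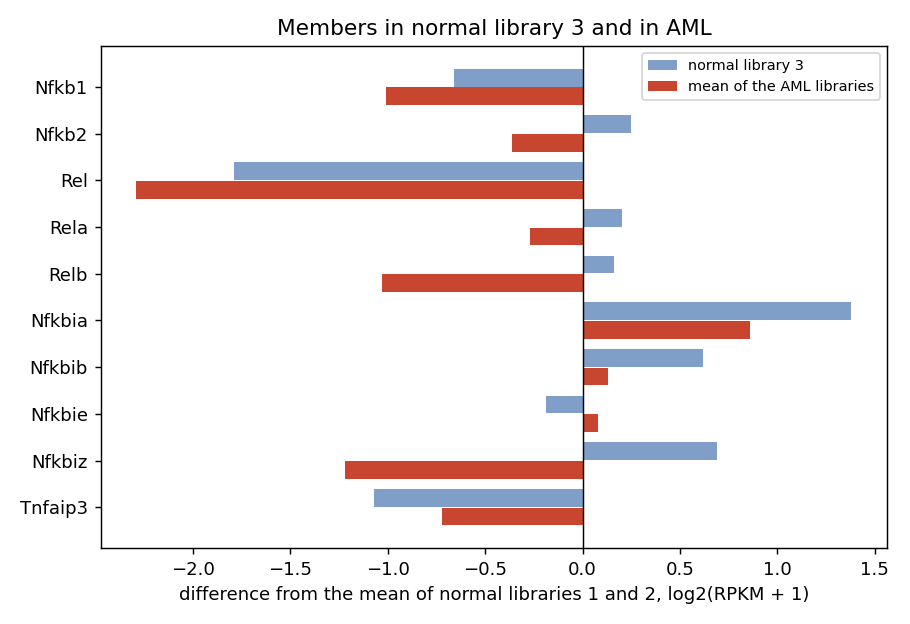
Difference of normal library 3 (blue) and of the AML mean (red) from the mean of normal libraries 1 and 2, in log2(RPKM + 1), for each member. Both bars of a member share their controls. Rel has bars at -1.79 and -2.29, and Relb at 0.16 and -1.03.

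Genes around the members were examined in 6 lists with 117 distinct genes in the table, of which 101 were tested. Among these 7 were higher (6.93%) and 22 lower (21.8%) in AML cells, beside 19.3% and 11.8% of all tested genes. All 7 higher genes were listed with 2 decimals and most of the 22 lower with 1 decimal, for a reason that was not tested. Without AML library 2 the counts were 0 and 6 of 100 tested list genes (6 were higher at an unadjusted limma p under 0.05), beside 3.33% and 3.55% of all genes in that fit. Without normal library 3 they were 15 and 32 of 101 (14.9% and 31.7%), beside 27.3% and 21.2% of all genes.

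Of 10 further IkappaB-family and nuclear regulators Nkiras2, a small GTPase-like protein that binds IkappaB proteins, was 3.25-fold lower, and none was higher (median log2 fold change 0.11). The call of Nkiras2 was lost without AML library 2 (limma adjusted p = 0.20) and without either of normal libraries 1 and 2. Bcl3, a nuclear IkappaB protein, stood at 7, 6 and 68 RPKM in normal and 3.1 and 4.1 RPKM in AML libraries. Normal library 3 alone set its high normal mean, and the log2 fold change of -1.78 did not pass (SE 0.93, limma adjusted p = 0.19). Without normal library 3 Bcl3 was lower by a smaller amount and passed (-0.71, limma adjusted p = 0.039). With normal library 3 as the only normal library the estimate was -3.92, and no test is given for it. Nfkbid, another nuclear IkappaB gene, stood at 14.49, 18.63 and 48.93 RPKM in normal and 29.76 and 52.13 RPKM in AML libraries (log2 fold change 0.71, limma adjusted p = 0.33). Without normal library 3 it was higher in AML cells (1.21, limma adjusted p = 0.013), and with normal library 3 as the only normal library the estimate was -0.30.

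Of 13 genes of the IKK step 2 were higher and 2 lower (median -0.23, or -0.43 and -0.10 without AML library 1 and 2). Ikbke, a noncanonical IKK-related kinase, went from 10.62, 11.61 and 30.2 RPKM in normal to 88.05 and 150.58 RPKM in AML libraries. All AML values exceeded all normal values, and the means differed 6.83-fold. The log2 fold change was 2.81 (SE 0.48, limma adjusted p = 0.0066). It was 3.26 without normal library 3, and 1.9 with normal library 3 as the only normal library. Tab1, an adaptor of the kinase that activates IKK, was 3.41-fold higher (log2 fold change 1.65, SE 0.27). Map3k14, the NF-kappaB-inducing kinase of the alternative pathway, was 3.87-fold lower, at 6.4, 5.7 and 5.3 RPKM in normal and 1.6 and 1.4 RPKM in AML libraries (log2 fold change -1.44, SE 0.20, limma adjusted p = 0.0033). Chuk, which encodes IKK alpha, was 1.71-fold lower. Ikbkb and Ikbkg, the other core IKK subunits, had log2 fold changes of 0.18 and -0.20 that did not pass. The calls of Ikbke and Tab1 were lost without AML library 2 (limma adjusted p = 0.075 and 0.065), and that of Map3k14 held without any one library.

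Of 20 tested receptor-proximal adaptors and kinases 1 was higher, namely Irak1, and 5 were lower, namely Nod2, Ticam2, Bcl10, Tirap and Ripk2 (median -0.55). Nod2, an intracellular sensor of bacterial cell walls, was 5.24-fold lower (3.93 ± 0.208 RPKM, SD, n = 3, against 0.75 ± 0.212 RPKM, SD, n = 2; limma adjusted p = 0.0024). Ticam2, a Toll-like receptor adaptor, and Bcl10, a signalling adaptor, were 2.79-fold and 2.01-fold lower, and both calls were lost without AML library 2 or either of normal libraries 1 and 2. The call of Ticam2 was also lost without AML library 1. Of 18 tested ubiquitin ligases and editors Sharpin, a subunit of the linear ubiquitin ligase, was 3.22-fold higher and Rnf11, a partner of Tnfaip3, was 2.27-fold lower (median -0.12). Sharpin's call was lost without normal library 2 or AML library 2, and Rnf11's without normal library 2 or either AML library.

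Of 16 tested receptors and ligands 5 were lower and none higher, namely Il1b, Tlr2, Tlr4, Il1rap and Cd40. Their median of -0.77 depended on the filter and was -0.34 both with no filter and with one at 5 RPKM. Tlr2, the receptor for bacterial lipoproteins, went from 27.6, 42.6 and 46.9 RPKM in normal to 5.7 and 4.4 RPKM in AML libraries (log2 fold change -2.70, SE 0.29, limma adjusted p = 0.0013). Tlr4, the endotoxin receptor, was 3.61-fold lower, and its call was lost without AML library 2 (limma adjusted p = 0.051). Of 29 tested classical NF-kappaB target genes 3 were higher, namely Gadd45b, Tap1 and Bcl2a1a, and 10 were lower (median -0.47). Those with the largest change on the log2(RPKM + 1) scale were Il1b, an inflammatory cytokine that was 30.5-fold lower, Slc2a6, a lysosomal hexose transporter that was 10.7-fold lower, and Ptgs2, the inducible cyclooxygenase. Slc2a6 stood at 16.1, 19.3 and 25.5 RPKM in normal and 1.8 and 2 RPKM in AML libraries (log2 fold change -2.85, SE 0.26, limma adjusted p = 0.00063). Ptgs2 stood at 5.4, 18.9 and 2.6 RPKM in normal and 0.1 RPKM in both AML libraries, and its call was lost without either AML library. Tnf, another target, was 13.3, 9 and 60.3 RPKM in normal and 19.9 and 27.8 RPKM in AML libraries and did not pass. The lists share genes, so their counts are not independent. Il1b and Tnf are in both the receptor and the target list, and Nod2 is in both the adaptor and the target list. Some called genes reached 1 RPKM in 1 group alone, and so passed the filter only through the group where they were high. These were Cd40, Nod2, Ptgs2 and Ccl4 in normal and Bcl2a1a in AML libraries. Their directions were set in part by the filter and add no support to the counts. Monocyte genes, of which 11 of 14 were lower in AML cells, and late neutrophil genes, of which 8 of 13 were lower, moved with the receptor and target lists. Their part in these counts was not tested.

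**Figure D5:**
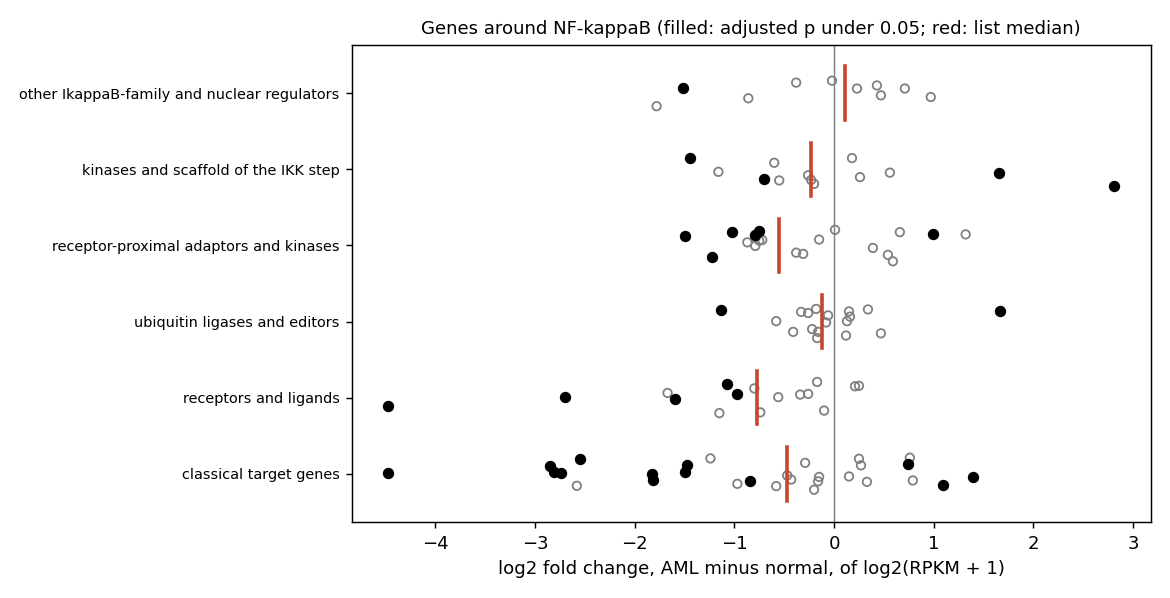
Log2 fold changes (AML minus normal, horizontal axis) of tested genes in the 6 lists around NF-kappaB, filled where the adjusted p was under 0.05, with list medians as red lines. Ikbke lies farthest to the right at 2.81 and Il1b farthest to the left at -4.47.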

How the data were processed

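Total RNA of the sorted cells was sequenced after library preparation with an Illumina TruSeq kit, per the labels' protocols. The deposited table held 5 columns, matched to samples by title. Its values are read here as RPKM computed by the authors. Neither labels nor header state this. It was inferred because values times exon length in kb gave sums of 1059377 to 1124787 per library, over 24904 features with a known length. The submitters' processing notes name mm9 as the genome build. The aligner and the counting tool are not stated there. Depth per library is unknown, so no counting interval is given. Members were listed with 1 decimal (8 genes) or 2 decimals (Nfkbia and Nfkbie). Nfkbia and Nfkbie were also the only members with estimates above 0. In the 6 lists around the members, all 7 genes called higher had 2 decimals. Most of the 22 called lower had 1 decimal. Number format and direction thus went together, and the reason was not tested.

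Features that reached 1 RPKM in 2 or more libraries were tested on log2(RPKM + 1), on which changes of low genes look smaller, with limma 3.58.1 in R 4.3.3 (variance trend, robust, two-sided). A gene could reach this level through 1 group alone, and some counted list and marker genes did. P-values were Benjamini-Hochberg adjusted over all 10166 tested features, with a threshold of 0.05. Fold differences are ratios of mean RPKM. The code was tested on simulated data. Coordinates came from GENCODE M1 (mm9), and promoter windows from RefSeq (GRCm38.p6).

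The members, lists and tests were chosen with earlier results of these data known. Named genes were the members, Bcl3, Nfkbid, up to 3 called genes with the largest change in each list, and the 3 nearest profiles to the subunit and the inhibitor with the largest change. One gene that this rule selects is not reported here. Chuk, Irak1, Tirap, Ripk2, Il1rap, Cd40, Gadd45b, Tap1, Bcl2a1a, Ikbkb, Ikbkg, Tnf, Psd, Sirt2, Trac, Lyz2, Flt3, Cd3d, Cd3e, Cd3g and Nkg7 were named after their values were seen. Ngp, Camp, Gzma and Ccl4 were also named after their values were seen. Alternatives were other scalings, filters, a pseudocount of 0.1, another variance model, rounding, and leaving libraries out.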

Additional observations from a re-analysis of the deposited data

How the results depend on the processing

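No paired analysis was possible because the labels give no replicate numbers that pair libraries. Under scaling by upper quartile, by quantiles or to an equal sum, with a pseudocount of 0.1, no filter, no variance trend or rounding, Relb and Nfkbiz stayed lower and past the threshold, and under quantile normalization Rel also passed (-1.73, limma adjusted p = 0.046). With a filter at 5 RPKM Relb was not tested, which left 1 lower member. Leaving out 1 library gave 0 to 4 lower and 0 to 1 higher members, 326 to 2757 higher and 348 to 2142 lower genes in all, and 0 to 15 higher and 6 to 32 lower genes of the lists. It moved the mean inhibitor to subunit ratio between 0.883 and 1.7 in normal and between 2.06 and 3.12 in AML cells. With normal library 3 as the only normal library, 864 genes in all were called higher and 471 lower, with 3 higher list genes. With no filter 13 list genes were lower. Signs turned for Nfkbib without normal library 3 (0.13) or AML library 1 (0.06; range -0.21 to 0.13 over all libraries left out), and, without normal libraries 1 and 2, for Nfkbia (-0.52), Tnfaip3 (0.35) and Nfkbid (-0.30). List medians turned for the further IkappaB-family genes with a filter at 5 RPKM and without normal libraries 1 and 2 (-0.20 in both) and for ubiquitin ligases without AML library 2 or without normal libraries 1 and 2 (0.03 in both; range -0.26 to 0.03 over single libraries left out). The median of receptors and ligands ran from -1.06 (pseudocount of 0.1) to -0.34 (no filter, or a filter at 5 RPKM). Calls of Nkiras2, Bcl10 and Ticam2 were also lost under scaling to an equal sum and with no filter, and that of Ptgs2 with no filter. Without normal libraries 1 and 2 the estimates were -1.05 for Nkiras2, -1.11 for Bcl10 and -0.77 for Ticam2. They were -0.87 for Rnf11 and 1.13 for Sharpin. The cause of these changes was not tested, beyond the fewer samples or genes in each fit. With 3 and 2 libraries, members that missed the threshold are not shown to be level.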
